A study of Mus musculus with 60 samples.

Results

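Nuclear receptors are transcription factors of 1 gene superfamily, many of which are switched by small lipophilic ligands, and the members described here are 43 mouse genes of the superfamily other than the estrogen-related receptor (ERR) genes. They were taken by gene symbol from a table of nascent RNA that lists 34929 RefSeq transcripts for 24256 symbols. All 43 were found, through 90 transcripts, and each gene is represented by the transcript with the highest RPKM (reads scaled by transcript length and library depth) summed over the libraries. The cells were E14 mouse embryonic stem cells, an established line grown on gelatin with serum and the cytokine LIF. They were transfected with a control siRNA (siCtrl) or with an siRNA against Esrrb (siEsrrb), itself an ERR gene, and harvested 72 h later. RNA that stayed with the chromatin pellet was sequenced, with 2 libraries per group. This fraction is rich in unfinished transcripts, and the transcript lengths behind the RPKM include introns. Nothing in the labels says that the 2 libraries of a group came from separate cultures, so the p-values cover the spread among these libraries and no more, which may be technical.

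A nuclear receptor typically carries a zinc-finger domain that binds DNA and a ligand-binding domain that recruits coactivators or corepressors. Steroid receptors act mostly as homodimers, retinoic acid, thyroid hormone, vitamin D and many lipid receptors pair with a retinoid X receptor (RXR), and several orphan receptors bind a single half-site as monomers. In mouse embryonic stem cells Esrrb, Nr5a2 and Nr0b1 are known members or partners of the naive pluripotency network. Retinoic acid receptors carry the signal by which these cells are commonly made to differentiate, and Nr6a1 is known to silence Pou5f1 during that process.

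The targeted gene was lower in both siEsrrb libraries. Esrrb stood at 3.23 and 3.36 RPKM in the siCtrl libraries (replicates 1 and 2) and at 1.38 and 2.20 RPKM in the siEsrrb libraries. After scaling this was 44.2% of control for replicate 1 and 67.0% for replicate 2, so the decrease at the nascent level was incomplete and smaller in replicate 2. The library totals behind the RPKM were 24764879 and 68002338 reads for siCtrl and 22363943 and 61857158 for siEsrrb, so replicate number and depth go together. Of 10 embryonic stem cell markers all 10 passed the expression minimum, with summed levels of 127 and 139 RPKM in siCtrl and 114 and 118 RPKM in siEsrrb. Of 12 fibroblast markers 2, Vim and Fn1, passed it, and Lum was listed at 0 in all 4 libraries.

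Of the 43 receptors, 14 were transcribed at a mean of at least 0.5 RPKM over the 4 libraries, the minimum for the test. This is 32.6% of the receptors, beside 40.2% of all 24256 symbols. A floor for the remainder was taken from 1467 olfactory and vomeronasal receptor genes, which embryonic stem cells are not known to use: 1186 of them were listed at 0 in every library and 95% had a mean of 0.0113 RPKM or less. A group of 18 receptors lay between that floor and the minimum, and 11 lay at or under the floor. The floor is in RPKM and not in reads, so a short transcript can pass it on few reads. Nr0b2 (2, 5, 0 and 4 reads in siCtrl 1 and 2, then siEsrrb 1 and 2) and Nr1i3 (1, 6, 1 and 5) lay above it. Thrb, over a very long transcript, lay under it with 88, 200, 49 and 117 reads. The receptors next to the minimum were Rora with 0.503 RPKM above it and Nr2c1 with 0.455 RPKM below it. Next to the floor were Esr1 with 0.0119 RPKM and Nr4a3 with 0.00966 RPKM. In the transcripts used, all 43 receptors had a read in some library, and 5 had a library with no read.

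**Figure D1:**
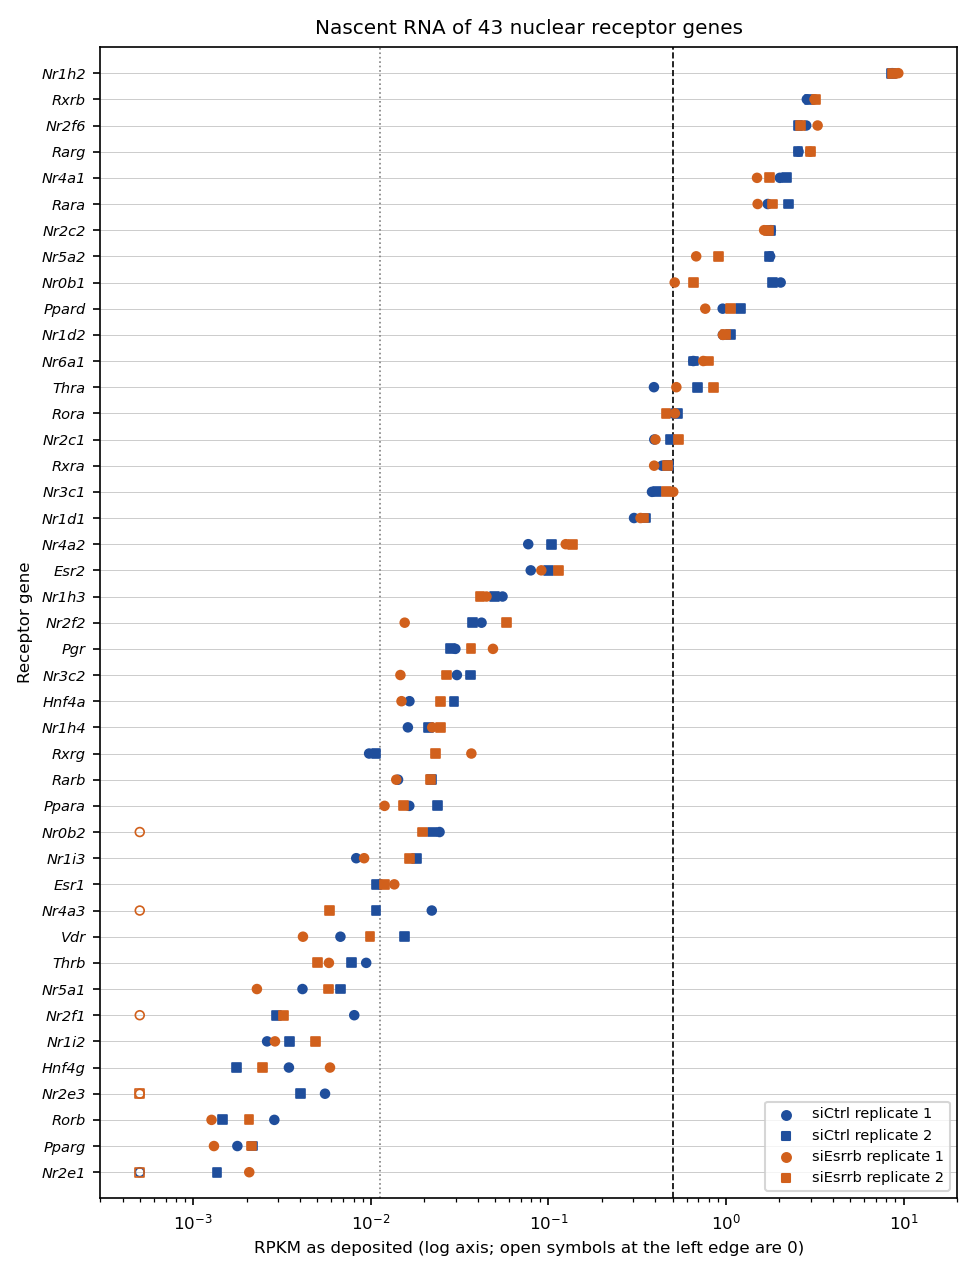
Deposited RPKM (log axis) of each of the 43 receptors in the 4 libraries, with circles for replicate 1, squares for replicate 2, blue for siCtrl and orange for siEsrrb. The dashed line is the minimum of 0.5 RPKM and the dotted line the floor of 0.0113 RPKM. The 14 receptors above the minimum run from Rora to Nr1h2, and for most receptors the 4 libraries lie close together beside the distance between receptors.

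By class, the levels separated the superfamily unevenly. The 2 genes without a DNA-binding domain gave 1 receptor above the minimum (Nr0b1), the 3 genes of the NR5A and NR6A groups gave 2 (Nr5a2, Nr6a1), and the 3 NR4A genes gave 1 (Nr4a1). Retinoic acid receptors gave 2 of 3 (Rara, Rarg), RXR genes 1 of 3 (Rxrb), and the thyroid hormone and vitamin D receptors 1 of 3 (Thra). Lipid-sensing partners of RXR gave 2 of 8 (Nr1h2, Ppard), the REV-ERB and ROR genes 2 of 4 (Nr1d2, Rora), and the remaining NR2 orphans 2 of 9 (Nr2f6, Nr2c2). None of the 5 steroid receptors in the list reached the minimum. In the REV-ERB and ROR class Nr1d1 lay between minimum and floor, and Rorb lay under the floor.

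The comparison of siEsrrb with siCtrl asks which of these receptors had other levels of nascent RNA after the knockdown. The 2 largest differences among the 14 tested receptors were both decreases, in Nr0b1 and Nr5a2. None of the 14 passed an adjusted p of 0.05 in limma's moderated test on log2(scaled RPKM + 0.5), and none of all 9755 genes tested did (0% called; smallest adjusted p = 0.247). At an unadjusted p under 0.05 limma gave 3 receptors, Nr0b1, Nr5a2 and Nr4a1, all with lower levels in siEsrrb. Over all genes 11.3% were past that unadjusted threshold, 5.33% with lower and 5.93% with higher levels. In 5 receptors (Nr0b1, Nr5a2, Nr4a1, Rara, Ppard) both siEsrrb libraries lay under both controls, and in 3 (Rarg, Rxrb, Nr6a1) above both. The same held for 22% of all tested genes in the lower and 21.8% in the higher direction, and no test was made of the receptors' counts against it. On RPKM as deposited, without scaling between libraries, the counts were 4 and 4, since Rara and Ppard then overlapped, Nr2c2 was lower and Nr1h2 higher. The shares of all genes were not computed on deposited RPKM, and 22% and 21.8% hold for scaled values only. The median log2 fold change of the 14 receptors was -0.01, beside -0.0011 over all genes tested.

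**Figure D2:**
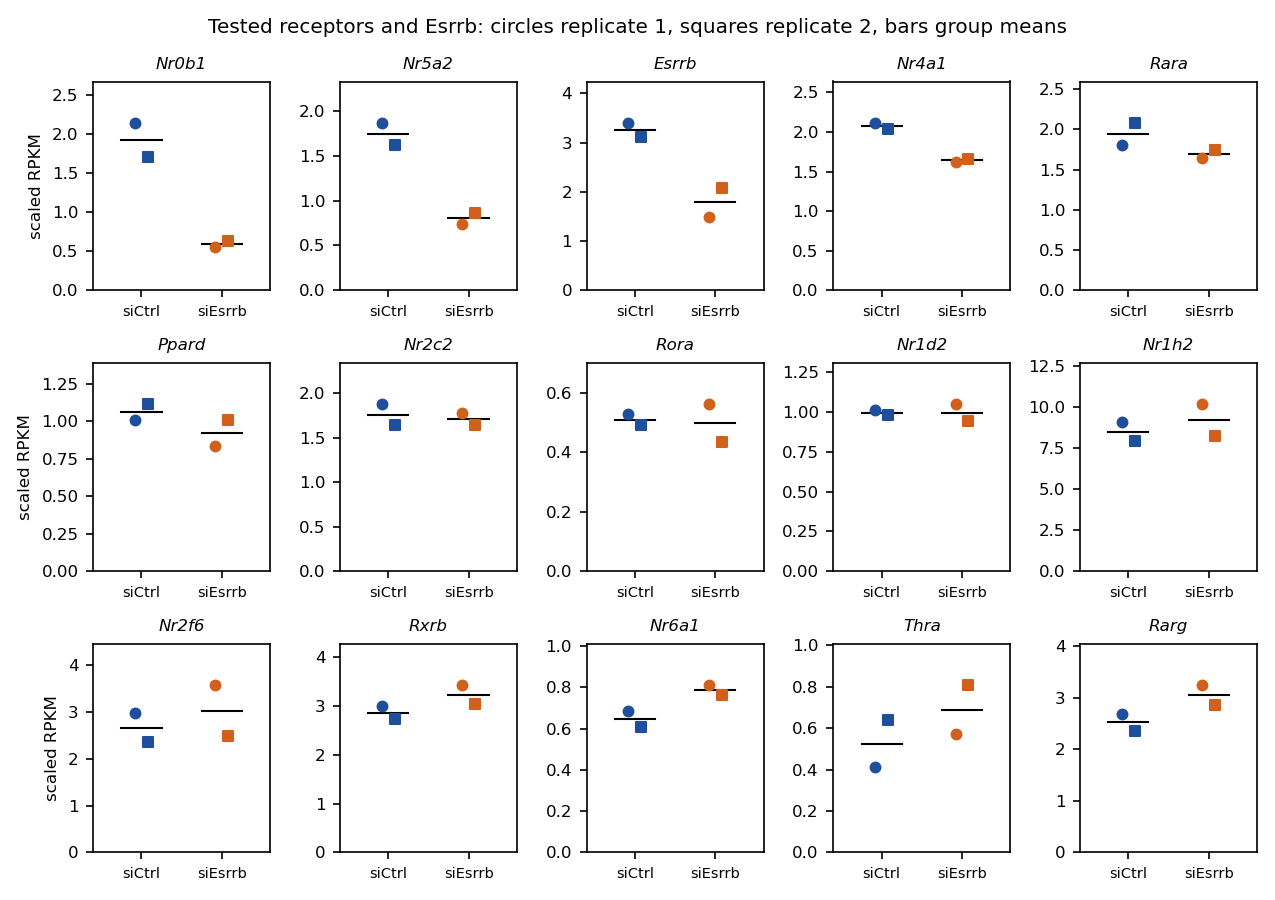
Scaled RPKM of the 14 tested receptors and Esrrb in the 4 libraries, ordered by log2 fold change, each panel with its own axis from 0. Nr0b1 and Nr5a2 show a gap between the groups wider than the distance within them, whereas Nr1d2, Nr2c2 and Rora overlap.

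Nr0b1 encodes DAX1, an atypical receptor that lacks the DNA-binding domain and acts mostly as a corepressor. It stood at 2.03 and 1.84 RPKM in siCtrl and at 0.515 and 0.659 RPKM in siEsrrb. Both siEsrrb libraries were thus far below both controls, at 26.2% of control for replicate 1 and 36.8% for replicate 2. The fold change was -1.14 on the log2(RPKM + 0.5) scale (SE 0.11, n = 2 per group, limma adjusted p = 0.247). By unadjusted p the gene ranked 11th of all 9755. The gene is short, and its values rest on 210 and 521 reads in siCtrl and 48 and 170 reads in siEsrrb. In bulk RNA, fewer cells that transcribe a gene and less RNA per cell cannot be told apart. The related Nr0b2, which encodes the corepressor SHP, had 2, 5, 0 and 4 reads in the 4 libraries (siCtrl 1 and 2, then siEsrrb 1 and 2), too few to compare.

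Nr5a2 encodes LRH-1, which binds a single extended half-site like that of ESRRB. Its level was 1.77 and 1.75 RPKM in siCtrl and 0.680 and 0.910 RPKM in siEsrrb, again with a clear gap between the groups. This was 39.7% of control for replicate 1 and 53.4% for replicate 2, with a log2 fold change of -0.78 (SE 0.09, limma adjusted p = 0.247). The gene ranked 21st of 9755 by unadjusted p, and with 4831, 13070, 1673 and 6194 reads it had far more reads behind it than Nr0b1. As with Esrrb itself, the percentage was nearer to control in replicate 2 for both Nr0b1 and Nr5a2. The steroidogenic paralogue Nr5a1 had between 1 and 9 reads per library and lay under the floor.

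Nearly all Nr5a2 reads lay downstream of the second of its 2 annotated starts. A transcript of 116865 bases begins 6818 bases upstream of the 110047-base transcript used here, and this added stretch held 1, 7, 1 and 4 reads in the 4 libraries. The 250 bases before the start of Nr0b1 and before both starts of Nr5a2 are shown because these receptors had the largest differences. The downstream start of Nr6a1 is shown because it is the only one among the receptors set apart between groups with 2 half-sites. Sequences are from RefSeq (GRCm38.p6, 5′ to 3′ in the direction of the gene), and capitals mark the nuclear receptor half-site AGGTCA or its reverse complement TGACCT.
Nr0b1, chrX:86191525-86191774, plus strand: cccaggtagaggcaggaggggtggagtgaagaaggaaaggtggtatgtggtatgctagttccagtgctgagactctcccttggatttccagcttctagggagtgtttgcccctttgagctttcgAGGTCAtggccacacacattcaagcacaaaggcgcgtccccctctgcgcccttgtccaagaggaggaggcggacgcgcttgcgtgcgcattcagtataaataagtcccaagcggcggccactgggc
Nr5a2 downstream start, chr1:136953631-136953880, minus strand: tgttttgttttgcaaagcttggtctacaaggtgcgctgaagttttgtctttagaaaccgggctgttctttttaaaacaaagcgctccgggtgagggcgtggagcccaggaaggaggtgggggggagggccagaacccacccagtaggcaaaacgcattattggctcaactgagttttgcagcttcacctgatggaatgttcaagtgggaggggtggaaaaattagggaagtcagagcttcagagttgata
Nr5a2 upstream start, chr1:136960449-136960698, minus strand: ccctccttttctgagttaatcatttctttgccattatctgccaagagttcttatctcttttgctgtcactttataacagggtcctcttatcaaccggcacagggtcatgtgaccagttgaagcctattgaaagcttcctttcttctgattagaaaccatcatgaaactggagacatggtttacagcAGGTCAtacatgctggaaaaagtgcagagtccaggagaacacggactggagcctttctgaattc
Nr6a1 downstream start, chr2:38784516-38784765, minus strand: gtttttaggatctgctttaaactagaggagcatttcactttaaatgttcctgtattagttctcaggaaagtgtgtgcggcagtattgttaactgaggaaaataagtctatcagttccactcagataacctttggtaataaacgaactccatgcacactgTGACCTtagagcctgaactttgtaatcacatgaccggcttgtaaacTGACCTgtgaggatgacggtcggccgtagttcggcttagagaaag

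In Nr0b1 the match begins 126 bases before the start, and in Nr5a2 it lies before the upstream start, 64 bases from it, where almost no reads were found. The downstream start of Nr5a2 holds no match. Over the 39 receptors in the promoter table, 11 of 56 starts (19.6%) held AGGTCA on either strand in these 250 bases, beside 14% of all 32851 starts of all genes. The extended half-site TCAAGGTCA, which contains AGGTCA and is known to be bound by ESRRB and NR5A2, was in 0 of the 56 receptor starts and in 0.387% of all starts. A match of letters describes these windows only, and binding was not analysed here.

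The NR4A genes are immediate-early receptors that act without a known natural ligand. Nr4a1 stood at 2.01 and 2.20 RPKM in siCtrl and at 1.50 and 1.75 RPKM in siEsrrb. Both siEsrrb libraries were lower, at 77.1% and 81.7% of control, with a log2 fold change of -0.26 (SE 0.06, limma adjusted p = 0.330). Nr4a2 lay well below the minimum, at 0.0770 and 0.104 RPKM in siCtrl and 0.125 and 0.137 RPKM in siEsrrb. It was thus higher in both siEsrrb libraries, at 169% and 134% of control, on 32, 119, 47 and 142 reads. Its shorter transcript had 8, 24, 20 and 23 reads. There siEsrrb was at 0.114 against 0.0413 RPKM for replicate 1, but at 0.0476 against 0.0452 RPKM for replicate 2. Nr4a3 had between 0 and 4 reads per library in the transcript used, and 2 to 9 over its longer one. The difference between Nr4a1 and Nr4a2 was not tested.

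Among the retinoic acid receptors Rarg and Rara lay on opposite sides of control. Rarg was at 2.56 and 2.54 RPKM in siCtrl and at 2.98 and 3.01 RPKM in siEsrrb, higher in both by nearly the same share (121% of control for each replicate number). Its log2 fold change was 0.23 (SE 0.10, limma adjusted p = 0.513). Rara was at 1.72 and 2.24 RPKM in siCtrl and 1.51 and 1.84 RPKM in siEsrrb, which is 90.9% and 83.9% of control (log2 fold change -0.15, SE 0.09). Its deposited values overlap between the groups, and the gap appears only once the libraries are scaled. Rarb, a known target of retinoic acid signalling, was near the floor at 0.0142, 0.0219, 0.0139 and 0.0217 RPKM, with 101% and 102% of control.

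The Rarg reads also differ along the gene. The transcript used here is 11563 bases long, and the longer annotated one, of 22585 bases, begins 11022 bases upstream. That upstream stretch held 108, 279, 76 and 207 reads, or 0.396, 0.372, 0.308 and 0.304 RPKM, against 2.56 to 3.01 RPKM in the shorter transcript. Within it siEsrrb was at 80.7% and 83.6% of control, below control where the downstream part was above it; this difference was not tested. The longer Rarg transcript as a whole still gave 115% and 117% of control.

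Of the RXR genes, which serve as the common dimer partner, Rxrb was the most transcribed. It was at 2.85 and 2.96 RPKM in siCtrl and 3.15 and 3.22 RPKM in siEsrrb, higher in both at 114% and 111% of control (log2 fold change 0.15, SE 0.10). Rxra lay just under the minimum at 0.437, 0.474, 0.394 and 0.468 RPKM, with overlapping groups and 93.4% and 101% of control. Rxrg was near the floor with 10 and 30 reads in siCtrl and 34 and 59 in siEsrrb. This was 390% and 222% of control, from 0.00979 and 0.0107 RPKM to 0.0368 and 0.0231 RPKM. The groups did not overlap, but 10 reads in siCtrl replicate 1 are too few for a comparison. Every Rxrg value stayed far below those of Rxra and Rxrb.

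The lipid-sensing receptors held the most transcribed gene of all 43. Nr1h2, which encodes the oxysterol receptor LXR beta, was at 8.64 and 8.55 RPKM in siCtrl and 9.34 and 8.70 RPKM in siEsrrb (112% and 104% of control, log2 fold change 0.11, SE 0.15). Its scaled values overlapped between the groups. Its paralogue Nr1h3 (LXR alpha) was at 0.0552, 0.0496, 0.0448 and 0.0412 RPKM, from 11 to 37 reads. Ppard, a fatty acid sensor, was at 0.958 and 1.20 RPKM in siCtrl and 0.765 and 1.06 RPKM in siEsrrb, which is 82.7% and 90.4% of control (log2 fold change -0.14, SE 0.09). Ppara was near the floor, lower in both siEsrrb libraries at 75.2% and 65.7% of control on 29, 115, 19 and 67 reads. The 19 reads in siEsrrb replicate 1 are too few for a comparison. Pparg, the adipocyte receptor, had 2 to 10 reads per library in the transcript used, and 5 to 15 over its longest one. The bile acid receptor Nr1h4 was at 0.0162, 0.0210, 0.0222 and 0.0247 RPKM, and the xenobiotic receptors Nr1i2 and Nr1i3 had at most 14 and 6 reads.

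Thra, the thyroid hormone receptor alpha gene, differed more by replicate number than by siRNA. It was at 0.393 and 0.690 RPKM in siCtrl and at 0.526 and 0.852 RPKM in siEsrrb, so both replicate 2 libraries were above both replicate 1 libraries. Within each number siEsrrb was the higher, at 139% and 127% of control (log2 fold change 0.22, SE 0.17). Thra overlaps Nr1d1 in the annotation, and without a stated use of strand in counting the reads of the overlap cannot be assigned. The same limit holds for Nr2c2 with Mrps25, Nr1h3 with Acp2, Nr1i3 with Tomm40l, Rara with Gm46294 and Ppard with 1810013A23Rik, whose own log2 fold change was -0.50 (SE 0.17, limma adjusted p = 0.425). In all, 18 receptors overlap another annotated gene, several of them predicted or non-coding. Thrb was under the floor at 0.00942, 0.00780, 0.00581 and 0.00502 RPKM, but over a very long transcript this gave 88, 200, 49 and 117 reads. It was lower in both siEsrrb libraries, at 63.9% and 65.9% of control. Vdr, the vitamin D receptor gene, had 5 to 57 reads.

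The REV-ERB repressors and the ROR activators compete for the same element in clock genes. Nr1d2 was at 0.961, 1.06, 0.962 and 0.993 RPKM, with overlapping groups at 104% and 96.1% of control (log2 fold change -0.0011, SE 0.07). Nr1d1 was at 0.304, 0.352, 0.330 and 0.345 RPKM as deposited, and at 113% and 101% of control after scaling. Rora was at 0.502, 0.533, 0.516 and 0.460 RPKM in its 11182-base transcript, which held 139, 405, 129 and 318 reads. Across the full gene of 734461 bases it was at 0.162, 0.163, 0.132 and 0.144 RPKM. The full-length transcript would therefore place Rora under the minimum, and there siEsrrb was lower, at 84.1% and 90.4% of control. Rorb had 2 to 9 reads per library in the transcript used, and 6 to 24 over its full-length one.

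No steroid receptor of the list was transcribed at the minimum. The glucocorticoid receptor gene Nr3c1 came nearest, at 0.383 and 0.409 RPKM in siCtrl and 0.505 and 0.461 RPKM in siEsrrb. It was higher in both siEsrrb libraries, at 136% and 116% of control, on 728, 2135, 866 and 2189 reads. The mineralocorticoid receptor gene Nr3c2 was lower in both, at 0.0305 and 0.0363 RPKM against 0.0147 and 0.0267 RPKM (49.8% and 75.3% of control, on 258, 842, 112 and 563 reads). The progesterone receptor gene Pgr was higher in both, at 0.0299 and 0.0280 RPKM against 0.0488 and 0.0367 RPKM (169% and 134% of control). The estrogen receptor genes were low: Esr2 was at 0.0796, 0.100, 0.0913 and 0.114 RPKM and Esr1 at 0.0113, 0.0108, 0.0136 and 0.0120 RPKM.

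Among the NR2 orphans, Nr2f6 (EAR2) was at 2.83 and 2.55 RPKM in siCtrl and 3.28 and 2.62 RPKM in siEsrrb, with overlapping groups at 120% and 105% of control. Nr2c2 (TR4), which can act on the same direct repeats as RXR dimers, was at 1.79, 1.77, 1.64 and 1.73 RPKM. Its scaled values were at 95.0% and 100.2% of control. Nr2c1 (TR2) lay just under the minimum at 0.395, 0.484, 0.401 and 0.540 RPKM. The COUP-TF genes were scarce, with 3 to 31 reads for Nr2f2 (6 to 41 over its longer transcript) and at most 1 read per library for Nr2f1. Nr2f2 had 38.2% of control for replicate 1 and 159% for replicate 2, the opposite directions. Hnf4a was at 0.0165, 0.0294, 0.0149 and 0.0247 RPKM, and Hnf4g, Nr2e1 and Nr2e3 lay under the floor.

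Nr6a1 encodes GCNF, a repressor. It was at 0.655 and 0.659 RPKM in siCtrl and at 0.745 and 0.803 RPKM in siEsrrb, higher in both at 118% and 125% of control (log2 fold change 0.16, SE 0.08). The transcript used here begins at the downstream start, whose sequence is given above. The longer one, of 203088 bases, begins 141946 bases upstream, and that upstream stretch held 0.551, 0.568, 0.584 and 0.619 RPKM, or 110% and 112% of control. In Nr6a1 reads were thus found on both sides of the second start at levels nearer to each other than in Nr5a2 and Rarg.

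Taken by replicate number, 11 of the 14 tested receptors lay on the same side of control in both pairs of libraries. The same share over all tested genes was not computed, so the count says nothing particular to the receptors. The medians of the receptors' log2 fold changes were 0.04 for replicate 1 and -0.02 for replicate 2. Below the minimum 13 receptors had at least 20 reads in every library. Of these, after scaling, 2 (Nr3c2, Thrb) were lower and 6 (Nr3c1, Nr1d1, Nr4a2, Esr2, Pgr, Nr1h4) higher in both siEsrrb libraries, and 5 overlapped. Over all 4282 genes of this kind 18.6% were lower and 24.4% higher. On RPKM as deposited Nr1d1 and Esr2 overlapped, and Esr1 was higher. A weighted limma fit (voom) on the reads recovered from the RPKM, chosen after the data were seen, covered 27 receptors with at least 20 reads in every library. Without a replicate block none passed the adjusted threshold there (0% of 13423 genes called, 12.3% at an unadjusted p under 0.05). That fit gave Nr3c2 a log2 fold change of -0.61 (SE 0.22, limma adjusted p = 0.362), Nr4a2 0.54 (SE 0.22, limma adjusted p = 0.416) and Nr3c1 0.30 (SE 0.15, limma adjusted p = 0.508).

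**Figure D3:**
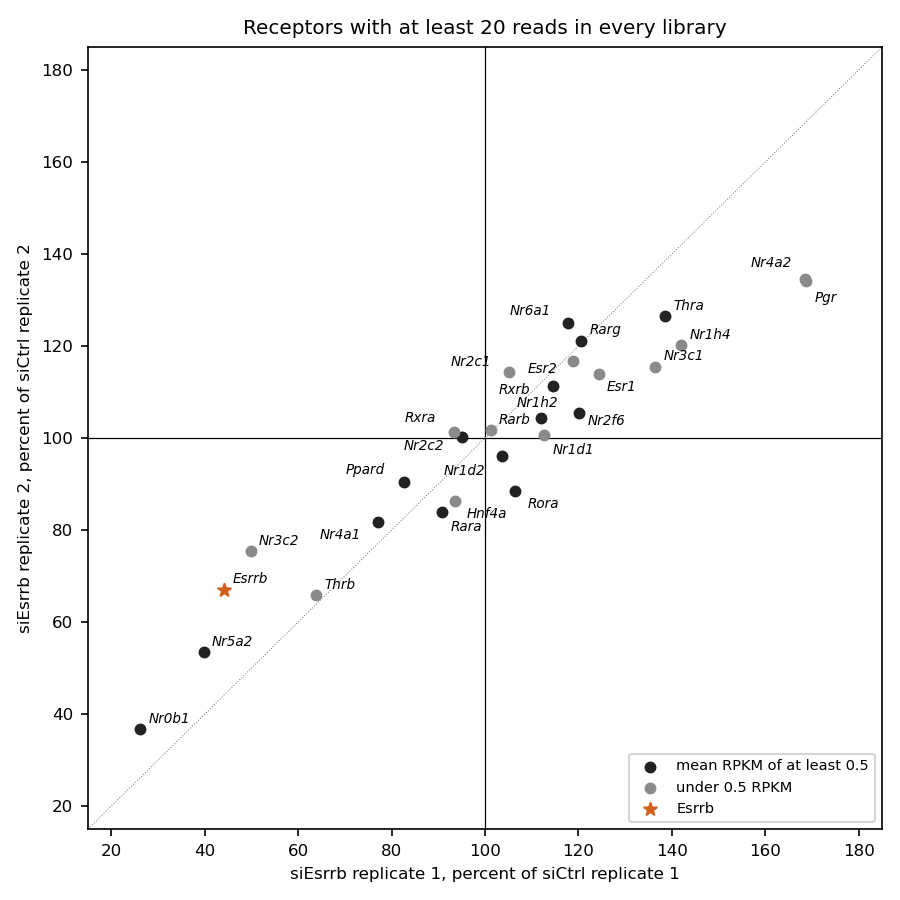
Level in siEsrrb as a percentage of the siCtrl library of the same replicate number, replicate 1 on the x axis and replicate 2 on the y axis, for Esrrb (star) and the receptors with at least 20 reads in every library (black: mean of at least 0.5 RPKM, grey: below). Nr0b1 and Nr5a2 lie farthest towards the lower left with Esrrb, while Nr4a2 and Pgr lie farthest right, both at 169% and 134%.

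The cofactors through which the receptors act were mostly transcribed. Of 34 coregulator genes 30 were tested, none passed the adjusted threshold, and their median log2 fold change was -0.02. Both siEsrrb libraries were under both controls for 8 and above both for 3 of the 30, beside 22% and 21.8% of all tested genes. Ncoa3, the steroid receptor coactivator SRC3, was at 3.83 and 3.56 RPKM in siCtrl and 2.81 and 2.88 RPKM in siEsrrb (log2 fold change -0.29, SE 0.12, limma adjusted p = 0.496). Nrip1, a corepressor of many ligand-bound receptors, stayed under the minimum at 0.245, 0.340, 0.172 and 0.274 RPKM.

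Genes known to supply ligands or to respond to the receptors were often not transcribed at the minimum. Of 20 genes of retinoid metabolism and response 2 were tested, and the retinol dehydrogenase Rdh10 was higher in both siEsrrb libraries (118% and 125% of control, log2 fold change 0.16, SE 0.09). Of 17 clock genes 11 were tested, and 3 were lower in both siEsrrb libraries (22% of all tested genes were), Cry1, Ciart and Clock, with log2 fold changes of -0.19, -0.19 and -0.15. Of 8 genes of thyroid hormone transport and metabolism none reached the minimum. Of 20 known targets of LXR and PPAR 10 were tested, 6 were lower in both siEsrrb libraries and none higher, beside 22% and 21.8% of all tested genes; the median log2 fold change was -0.12. Fabp3, a fatty acid carrier, was at 1.61 and 2.79 RPKM in siCtrl and 0.568 and 1.34 RPKM in siEsrrb (36.7% and 49.3% of control, log2 fold change -0.88, SE 0.29, limma adjusted p = 0.412). Cpt1a, which admits fatty acids to mitochondria, was at 0.669 and 1.20 RPKM in siCtrl and 0.290 and 0.594 RPKM in siEsrrb (44.9% and 50.5% of control, limma adjusted p = 0.442). Of 14 glucocorticoid targets and HSP90 chaperones 12 were tested, 1 was lower (Fkbp5, log2 fold change -0.19) and 4 were higher in both siEsrrb libraries, beside the same 22% and 21.8%. The highest of these was the chaperone gene Hsp90ab1 with a log2 fold change of 0.29 (SE 0.15). No gene of these lists passed the adjusted threshold.

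**Figure D4:**
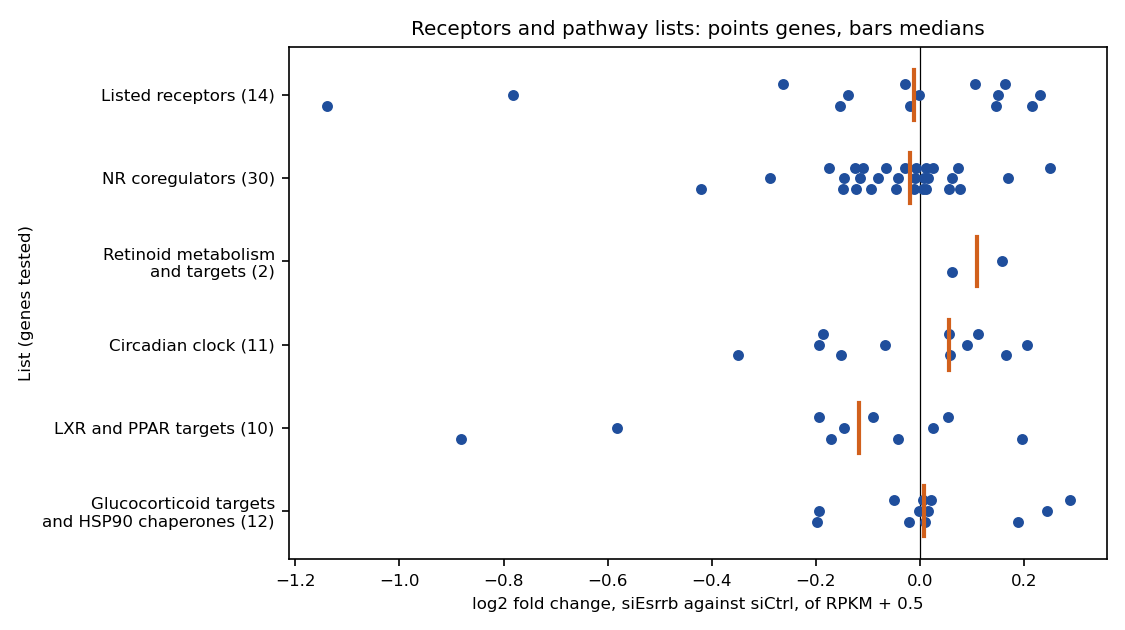
Log2 fold change of RPKM + 0.5, siEsrrb against siCtrl, for the 14 tested receptors and the tested genes of 5 lists, 1 point per gene, with an orange bar at each median. The receptor row reaches -1.14 (Nr0b1) and -0.78 (Nr5a2) with the others between -0.26 (Nr4a1) and 0.23 (Rarg), and the LXR and PPAR targets have the lowest median.

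Summed levels, as deposited, of the primitive endoderm, trophectoderm and neuroectoderm markers lay apart between the groups. Those of the fibroblast markers overlapped, at 13.2 and 17.2 RPKM in siCtrl and 12.6 and 17.0 RPKM in siEsrrb. The gaps lay mostly in single genes of the lists: Lama1, Krt8 with Krt18, and Nes. The part of the markers in the receptor values was not tested. The primitive endoderm list summed to 2.89 and 3.12 RPKM in siCtrl and 0.757 and 1.52 RPKM in siEsrrb, of which Lama1 was the only one of 8 genes above the minimum. The trophectoderm list summed to 9.73 and 7.62 RPKM in siCtrl and 14.6 and 10.4 RPKM in siEsrrb, with only Krt8 and Krt18 of 7 above the minimum. After scaling the groups overlapped for both genes. Within replicate numbers Krt8 was at 159% and 151% of control and Krt18 at 155% and 137%. The neuroectoderm list summed to 7.17 and 7.17 RPKM in siCtrl and 9.59 and 10.1 RPKM in siEsrrb. Of its 7 genes 5 were above the minimum, and Neurog2 was listed at 0 in all 4 libraries. Nes alone went from 2.87 and 2.88 RPKM in siCtrl to 5.45 and 5.60 RPKM in siEsrrb. After scaling 3 of the 5 (Nes, Sox1, Otx2) were higher in both siEsrrb libraries and 1 (Ncam1) lower. Over all tested genes the shares were 21.8% and 22%. Ncam1 was at 28.7% and 54.8% of control. Of the stem cell markers Zfp42, Dppa5a, Fgf4, Nanog and Tdgf1 were lower and Pou5f1 was higher in both siEsrrb libraries.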

How the data were processed

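Nascent RNA-seq was analysed in 4 libraries, 2 siCtrl and 2 siEsrrb, grouped by their titles; the other 56 samples of the series were not analysed here. The authors deposited RPKM per RefSeq transcript. Per the submitters' processing notes, CASAVA 1.4, TopHat2 and the build mm9 served for all 4 libraries, and Bowtie 1.1.1 and Bowtie2 are listed for replicate 1 alone. Libraries were stranded, per the labels' protocols; how reads were counted, with or without strand, is not given in the sources used here. Transcripts were matched to symbols through RefSeq tables of GRCm38.p6, and 303 of 34929 transcripts without a symbol were left out.

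The RPKM of each library were scaled by its median of ratios to the geometric mean of all 4 (1.05 and 0.925 for siCtrl, 1.09 and 0.948 for siEsrrb, from genes above 0.5 RPKM in all 4 libraries). The 9755 genes with a mean of at least 0.5 RPKM were tested as log2(scaled RPKM + 0.5) with limma 3.58.1 in R 4.3.3 (eBayes with a mean-variance trend, 2 groups, two-sided), with Benjamini-Hochberg adjustment over all of them and a threshold of 0.05. The pseudocount makes fold changes of low genes smaller. The SE is limma's moderated one. Percentages of control divide scaled RPKM of the same replicate number with no pseudocount. Of 31771 transcripts above 0, 31769 gave whole reads within 0.001 of a read in all 4 libraries; reads and lengths come from this recovery and lengths include introns. With 2 libraries a group the smallest exact permutation p is 0.333, and that test was left out. The fit was tested on simulated data.

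The members and the lists were chosen with earlier results of these data known. Every receptor above the minimum is named with each library's value, those between floor and minimum with values or reads, and from each list the genes apart between groups with the largest fold change in each direction and up to 2 more. Nrip1, Rarg stretches and the markers were named after their values were seen. Alternatives were other pseudocounts, minimums, scaling, voom, a replicate block and leaving out each library. Of the genes this rule takes, 1 coregulator is not reported here.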

Additional observations from a re-analysis of the deposited data

How the results depend on the processing

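No receptor and no gene passed the adjusted threshold with pseudocounts of 0.1 or 1 RPKM, other minimums, RPKM as deposited or voom without a block. Leaving out 1 library gave 0 to 6 genes (2 without siCtrl replicate 1, 6 without siEsrrb replicate 2) and 0 receptors; the lone library is then assumed to vary like the other group. The labels do not say that the replicate numbers pair cultures. Deviations of same-numbered libraries correlated at 0.386 over 9755 genes, and there are 2 pairs only. With the replicate block limma called 0 of 9755 genes. With the block and at least 20 reads in every library it called 1774 of 9141 genes and 5 of 14 receptors (Nr0b1, Nr5a2, Nr4a1, Rarg, Thra). With the block and voom it called 2707 of 9754 genes and 8 of 14 receptors (Nr6a1, Ppard and Rara besides). In the added voom fit without an RPKM minimum, the block gave 3440 genes (25.6% of 13423) and 13 of 27 receptors, among them Nr3c1, Nr3c2, Nr4a2, Pgr and Thrb. Without the minimum 11 of 43 receptors were lower and 10 higher in both siEsrrb libraries (18.5% and 20.8% of 21330 genes). At a mean of at least 2 RPKM 0 of 4 were lower and 2 higher (18.5% and 24.4% of 3896 genes). The added voom fits gave 7 lower and 8 higher of 27 (21.8% and 22% of 13423 genes), with and without the block. At a minimum of 1 RPKM 9 receptors were transcribed. Log2 fold changes turned sign when 1 library was left out for Nr1d2 (range -0.050 to 0.049), Nr2c2 (-0.10 to 0.046) and Rora (0.0046 to 0.071), each without siCtrl replicate 1 or siEsrrb replicate 2, and for Nr1h2 (-0.033 to 0.25) and Nr2f6 (-0.076 to 0.37), each without siEsrrb replicate 1. The cause was not tested. Nr0b1 kept its sign, from -1.60 to -0.87, and Nr5a2, from -1.12 to -0.60, over the settings that tested them. The minimum of 2 RPKM left both out. With 2 libraries a group the spread is poorly known, and receptors under 20 reads allow no comparison.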
